A study of Mus musculus with 10 samples.

Results

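The response of wildtype cortical neurons to sodium arsenite was read from 6 arrays, 4 of arsenite-treated and 2 of vehicle-treated cultures, out of 10 arrays in the series. The arrays were chosen by their titles, and all 22180 genes that a single-symbol probe set measured were tested, each through its brightest probe set. The cells were dissected from the cortex of mouse embryos at embryonic day 14.5 to 15.5 and grown as dissociated neurons in Neurobasal medium with B27 plus supplement. At 7 days in vitro they were given 5 µM sodium arsenite or vehicle, and RNA was taken 12 hours later. The other 4 arrays came from ATF4-deficient embryos under the same treatment and vehicle, 2 of each, and they entered the shared estimate of spread. The labels name no strain, allele or sex and do not say whether replicates were separate embryos or cultures. The p-values therefore cover the spread seen among these arrays, part of which may be technical.

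Arsenite is a trivalent form of arsenic that binds neighbouring thiols in proteins and depletes glutathione. Cells meet it with several programmes at once. The antioxidant factor NRF2, released from its thiol-sensing partner KEAP1, switches on genes of glutathione, thioredoxin and haem metabolism, and the haem-sensing repressor BACH1 leaves the Hmox1 gene. Phosphorylation of the initiation factor eIF2α slows protein synthesis and raises translation of ATF4, which drives genes of amino acid uptake, amino acid synthesis and tRNA charging: the integrated stress response. Damaged proteins call on heat shock factor, and metals on MTF1 and the metallothioneins. Neurons in culture also fire, and their activity induces immediate early genes. Firing itself was not measured by these arrays.

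The values were log2 expression values on a scale where 1 unit is a doubling. Array medians lay between 7.04 and 7.08, and pairs of the 6 wildtype arrays correlated at 0.988 to 0.994 over genes, which do not count as replicates. On the first principal component of the 6 arrays (34.7% of the variance) the vehicle arrays lay at -17.4 and -15.9 and the arsenite arrays at 0.66, 13.1, 18.5 and 0.98. Pan-neuronal markers were bright: their mean over 12 genes was 10.2 in each vehicle array and between 10.1 and 10.3 in the arsenite arrays. The sex-linked transcript Xist was high in vehicle replicate 2 (11.9) and arsenite replicate 4 (11.9) and between 6.56 and 8.09 in the other 4 arrays, and the Y-linked genes Eif2s3y, Kdm5d and Uty showed the reverse. Each treatment group therefore held both kinds of array. The level 6.63, under which lay the means of 90% of 1393 odorant and vomeronasal receptor genes, served as a dim reference.

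In limma 107 genes, 0.482% of those tested, changed with arsenite at an adjusted p under 0.05: 51 rose (0.23%) and 56 fell (0.252%). Haem oxygenase and the cystine importer led the rises, followed by genes of the integrated stress response. The falls were led by Rgs4, a regulator of G protein signalling, the matrix link protein gene Hapln1, Nwd2, Snx7 and the potassium channel partner Kcnip2. All 107 had every arsenite array on one side of both vehicle arrays, an arrangement shown by 20.6% of all genes (7.86% with arsenite higher, 12.7% with arsenite lower). Changes were moderate: 7 genes rose and 7 fell by more than 2-fold, the median rise was 0.70 log2 and the median fall -0.73, and the smallest called change was 0.43. The median difference over all genes was -0.02, with quartiles of -0.11 and 0.07. At an unadjusted p under 0.05, 2426 genes differed. After quantile normalization of the arrays the calls were 89 higher and 63 lower, which made the share of rises 58.6% in place of 47.7%. The mean vehicle level of 12 risen genes, and the mean arsenite level of 7 fallen genes, was below the dim reference, where the size of a change is compressed by background. Among probe sets that carry several symbols (1814) or no symbol (16010), limma called 0 in each direction (0%), with 127 and 1143 at an unadjusted p under 0.05.

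The 107 calls rested on few arrays. Leaving out vehicle replicate 1 left 1 vehicle array, assumed to vary like the other groups, and 0 calls (1810 genes at an unadjusted p under 0.05, smallest adjusted p = 0.122 in limma). Without vehicle replicate 2 there were 37 calls, without arsenite replicates 1, 2, 3 and 4 there were 44, 14, 14 and 75, without either of the ATF4-deficient vehicle arrays 63, and without either of the ATF4-deficient arsenite arrays 57. All 107 estimates kept their sign in each of these fits. In the 9 fits other than the one without vehicle replicate 1, 11 genes were called every time: Hmox1, Slc7a11, Ddit3, Slc44a5, Tas2r108, 4930519F24Rik, Rgs4, Snx7, Kcnv1, Ndnf and Nudt4. A further 19 were called in 0 of those fits. Of these Akna, Atf5, Dnajb4, Gpr137b-ps, Mttp, Rad9b, Slx4ip, Trim66, Zfp93, 5430403N17Rik and Olfr690 rose. Cacna1i, Dgkz, Diras2, Dis3l2, Galnt2, Ipo4, Pdgfra and Ptp4a3 fell. A fit to the 6 wildtype arrays alone called 11 genes, 4 higher and 7 lower. For the 20 largest rises and falls the number of the 10 left-out-array fits that kept the call is given with the gene, and a range where it moved the value by over 1.5 times.

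**Figure D1:**
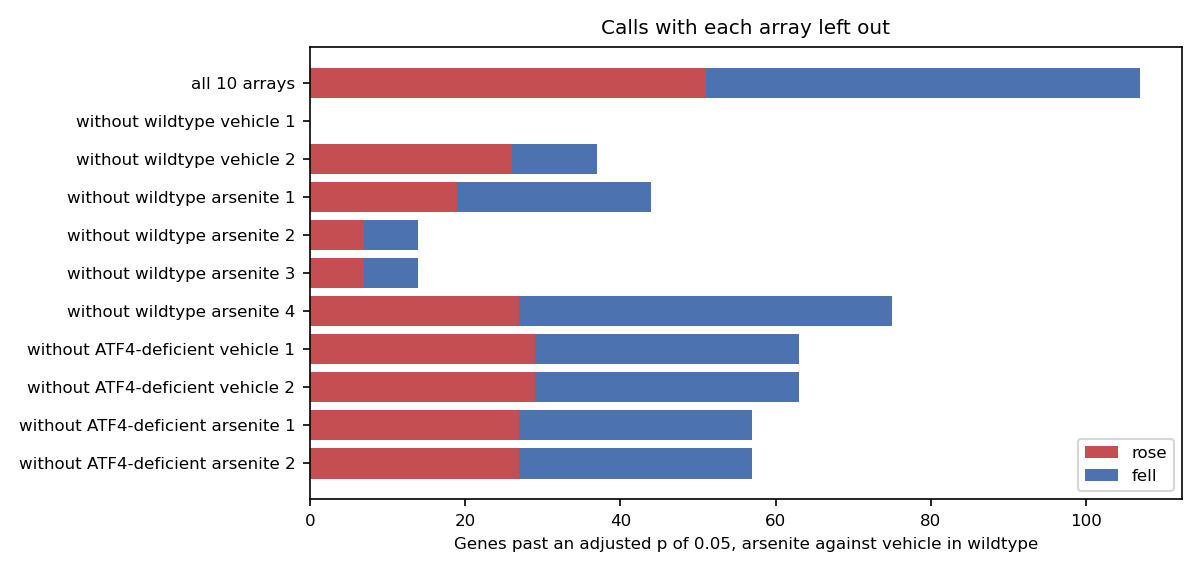
Genes past an adjusted p of 0.05 for arsenite against vehicle in wildtype neurons (horizontal axis, number of genes), split into those that rose and those that fell, with all 10 arrays and with each array left out. The count was 107 with all arrays and otherwise ran from 0, with the first wildtype vehicle array left out, to 75, with the fourth arsenite array left out.

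Hmox1 encodes haem oxygenase 1, which breaks haem down to biliverdin, carbon monoxide and free iron. Its level was 7.48 and 7.76 in the vehicle arrays and 11.02, 11.04, 10.68 and 10.72 in the arsenite arrays. The groups were far apart, with every arsenite array close to 3 units above the higher vehicle array. The rise was 3.25 log2 (SE 0.31, 95% interval 2.56 to 3.93), or 9.49-fold, with an adjusted p of 0.00339 in limma. It was the largest change among the called genes in either direction. The call was kept in 9 of 10 left-out-array fits, with a rise between 3.11 and 3.38. Between the arrays with high Xist the difference was 2.97, and among those with low Xist it was 3.43.

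Hmox1 was the single called gene of 14 heme and iron genes, whose median difference was -0.05. The members of this and all other lists were chosen with earlier results of these data known. Their counts and medians therefore describe the lists and test nothing. Slc40a1, the iron exporter ferroportin, was 0.34 higher (adjusted p = 0.303), and Tfrc, the transferrin receptor, 0.25 higher (adjusted p = 0.759). Fech, the last enzyme of haem synthesis, was 0.18 lower and Aco1, whose protein senses iron as IRP1, 0.21 lower, and neither passed the test. The regulators themselves were not called. Nfe2l2, which encodes NRF2, was at 6.85 and 7.24 under vehicle and between 7.13 and 7.22 under arsenite, inside the vehicle range. Bach1 was 0.46 higher (adjusted p = 0.123) with all 4 arsenite arrays above vehicle, and Keap1 0.34 lower (adjusted p = 0.274) with all 4 below.

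Slc7a11 encodes xCT, the cystine-glutamate exchanger that brings in the cystine needed for glutathione. It was at 6.13 and 7.04 in the vehicle arrays and at 8.70, 8.87, 8.67 and 9.12 under arsenite. The vehicle arrays differed from each other by nearly a log2 unit, yet the lowest arsenite array was well above the higher of them. The rise was 2.25 log2 (SE 0.25, adjusted p = 0.00573), or 4.77-fold, from a vehicle mean below the dim reference. It was kept in 9 of 10 left-out-array fits, and it was 1.80 without vehicle replicate 1 and 2.71 without vehicle replicate 2. A second Slc7a11 probe set, with a vehicle mean of 4.01, differed by 0.09.

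Of 15 measured genes for glutathione and cystine, many of them NRF2 targets, Slc7a11 was the 1 that rose, 0 fell and 14 did not pass, and the median difference was 0.08. The genes next in size had all 4 arsenite arrays above both vehicle arrays. Gclm and Gclc encode the modifier and catalytic subunits of glutamate-cysteine ligase, the first step of glutathione synthesis. Gclm was at 8.99 and 8.92 under vehicle and between 9.38 and 9.84 under arsenite, a difference of 0.64 (adjusted p = 0.102). Gclc differed by 0.49 (adjusted p = 0.110) and Gsr, glutathione reductase, by 0.53 (adjusted p = 0.186). Chac1, which degrades glutathione and is an ATF4 target, differed by 0.83 (adjusted p = 0.0819).

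Of 14 thioredoxin and NADPH genes, not all of them NRF2 targets, 0 were called in limma (4 at an unadjusted p under 0.05, beside 2426 of 22180 over all genes). Their median difference was 0.13. Txnip, which encodes an inhibitor of thioredoxin, was at 9.90 and 9.21 under vehicle and at 10.99, 10.24, 10.24 and 10.47 under arsenite. The groups did not overlap, but the difference of 0.93 (SE 0.26) did not pass (adjusted p = 0.173). Txnrd1, thioredoxin reductase 1, was 0.46 higher (adjusted p = 0.147) and Sqstm1, the autophagy receptor p62, 0.28 higher (adjusted p = 0.264). Idh1, a cytosolic source of NADPH, was 0.27 lower (adjusted p = 0.375). Nqo1 and Srxn1, classic NRF2 targets picked here after their values were seen, differed by -0.02 and 0.19, and Nqo1 was below the dim reference in both groups.

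Genes of the integrated stress response supplied 10 of the 51 rises. Among 22 of its regulators and linked genes 3 rose, 0 fell and 19 did not pass, and the median difference was 0.37. Ddit3, which encodes the transcription factor CHOP, was at 7.92 and 8.16 under vehicle and at 9.02, 9.31, 9.20 and 8.87 under arsenite. All 4 treated arrays lay above both vehicle arrays, and the rise of 1.06 log2 (SE 0.13, adjusted p = 0.0104) was kept in 9 of 10 left-out-array fits. Sesn2, sestrin 2, restrains the growth kinase mTORC1 when leucine is short. It was at 7.12 and 7.94 under vehicle and at 8.498, 9.17, 8.71 and 9.10 under arsenite. The groups were separate, though vehicle replicate 2 stood well above replicate 1, and the rise of 1.34 (SE 0.24, adjusted p = 0.0411) was kept in 2 of 10 fits, with values between 0.93 and 1.75. Atf5, a relative of ATF4 under the same translational control, rose by 0.58 (SE 0.11, adjusted p = 0.0486), a call kept in 0 of 10 fits, with values between 0.47 and 0.70.

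Further genes of the same list had all arsenite arrays above vehicle and did not pass. Eif4ebp1 encodes 4E-BP1, which holds back cap-dependent translation. It was at 7.30 and 8.44 under vehicle and at 8.92, 9.63, 9.31 and 9.05 under arsenite, a difference of 1.36 (SE 0.31, adjusted p = 0.101) that was 0.788 without vehicle replicate 1 and 1.92 without vehicle replicate 2. Its vehicle arrays lay more than a unit apart, and all 4 arsenite arrays were above both. Ddr2, a collagen receptor kinase, differed by 0.83 (adjusted p = 0.126) and Cebpg, a dimer partner of ATF4, by 0.52 (adjusted p = 0.103). Atf4 itself was at 9.09 and 9.56 under vehicle and at 9.43, 9.80, 9.64 and 9.91 under arsenite. These groups overlapped, and the difference of 0.37 (SE 0.15) did not pass (adjusted p = 0.396). It was 0.132 without vehicle replicate 1 and 0.609 without vehicle replicate 2. Its translation was not measured by these arrays.

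The enzymes that make serine, glycine and folate-bound carbon units gave the most calls of any stress list. Of 17 amino acid and folate-pathway synthesis genes 4 rose, 0 fell and 13 did not pass. Their median difference was 0.67, against -0.02 over all genes, in a list chosen with earlier results of these data known. Psph catalyses the last step of serine synthesis. It was at 7.36 and 7.45 under vehicle and at 8.01, 8.49, 8.33 and 8.03 under arsenite, a rise of 0.81 (SE 0.13, adjusted p = 0.0338) with no overlap. The mitochondrial folate enzymes Aldh1l2 and Mthfd1l rose by 0.84 (SE 0.13, adjusted p = 0.0286) and 0.67 (SE 0.11, adjusted p = 0.0338), and the branched-chain aminotransferase Bcat1 rose by 0.68 (SE 0.10, adjusted p = 0.0278). Of the left-out-array fits, 2 of 10 kept Psph, 3 of 10 Mthfd1l and 6 of 10 each Aldh1l2 (0.643 to 1.03) and Bcat1.

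Larger differences in the same block missed the threshold. Psat1, the serine-pathway aminotransferase, was at 7.99 and 8.73 under vehicle and at 9.25, 9.97, 9.75 and 9.58 under arsenite. Its groups were separate and its difference was 1.28 (SE 0.24, adjusted p = 0.0506), with 0.909 and 1.65 when vehicle replicate 1 or 2 was left out. Mthfd2 and Shmt2, which move carbon units from serine to folate in mitochondria, differed by 1.05 (SE 0.26, adjusted p = 0.126) and 1.03 (SE 0.23, adjusted p = 0.0907). Without vehicle replicate 1 or 2 these were 0.666 and 1.43 for Mthfd2 and 0.707 and 1.35 for Shmt2. Aldh18a1, the entry enzyme of proline synthesis, differed by 0.78 (adjusted p = 0.0660) and Asns, asparagine synthetase, by 0.67 (adjusted p = 0.179). In all, 11 of the 17 had every arsenite array above vehicle, beside 7.86% of all genes. The mean over the 17 genes was 7.95 and 8.23 in the vehicle arrays and 8.44, 8.78, 8.61 and 8.60 in the arsenite arrays, so vehicle replicate 1 was the lowest of the 6.

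Of the amino acid transporters 2 of 11 were called, both higher, and a median of 0.62. Slc7a1 carries arginine and lysine into the cell. It was at 8.73 and 9.36 under vehicle and between 9.96 and 10.28 under arsenite, a rise of 1.08 (SE 0.19, adjusted p = 0.0394) that 3 of 10 left-out-array fits kept (0.76 to 1.40). Slc7a5 and Slc3a2 form the large neutral amino acid exchanger LAT1, and Slc3a2 is also the partner of Slc7a11. Slc7a5 was at 10.18 and 10.98 under vehicle and between 11.37 and 11.67 under arsenite (0.92, adjusted p = 0.0960), and Slc3a2 at 9.99 and 10.43 and between 10.81 and 10.94 (0.66, adjusted p = 0.0600). Neither overlapped, and neither passed. Slc1a4, a serine and alanine carrier, differed by 0.73 (adjusted p = 0.0673), and Slc7a3, another cationic carrier, by 0.62 with overlapping groups (adjusted p = 0.338).

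Aminoacyl-tRNA synthetases join amino acids to their tRNAs, and separate sets serve the cytosol and the mitochondria. Of 18 cytosolic enzymes Lars rose and 0 fell, and the median difference was 0.29. In 10 of them all arsenite arrays lay above vehicle, beside 7.86% of all genes. Lars, which charges leucine tRNA, was at 8.98 and 9.29 under vehicle and at 9.63, 10.04, 9.84 and 9.95 under arsenite (0.73, SE 0.14, adjusted p = 0.0497), a call kept in 1 of 10 fits (0.578 to 0.887). The threonine, isoleucine, cysteine and asparagine enzymes Tars, Iars, Cars and Nars differed by 0.69, 0.65, 0.59 and 0.57, with adjusted p between 0.0537 and 0.174. Of 16 mitochondrial enzymes 0 were called in limma (0 also at an unadjusted p under 0.05), the median was -0.06 and 0 had all arsenite arrays above vehicle; Rars2 was the farthest from 0 with 0.22 (adjusted p = 0.599).

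**Figure D2:**
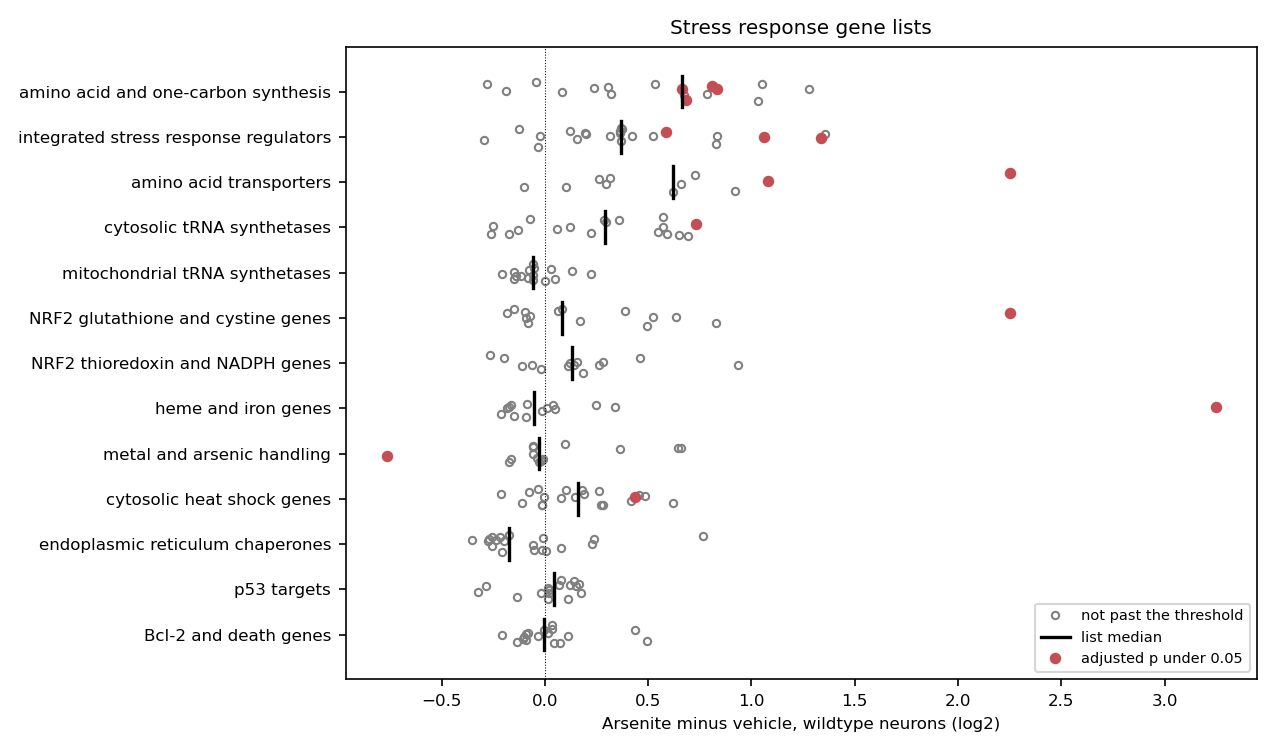
Difference of arsenite minus vehicle in wildtype neurons (log2, horizontal axis) for each measured gene of 13 stress response lists, 1 circle per gene; filled circles passed an adjusted p of 0.05 and the bar marks the list's median. The median was 0.67 for amino acid and folate-pathway synthesis, 0.62 for amino acid transporters and -0.06 for mitochondrial tRNA synthetases.

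ATF4 binds DNA with C/EBP proteins at a composite site, the C/EBP-ATF response element. Its core letters TGATGNAA were searched on both strands in the window from 250 bases before to 50 bases after each RefSeq start (GRCm38.p6), where 16990 of the genes tested had a window. The letters occurred in 3.92% of those genes, in 3 of 38 risen genes (7.89%), in 1 of 44 fallen genes (2.27%) and in 15 of the 52 members of the 4 integrated stress response lists with a window (28.85%). Slc7a11 was the called gene of those lists that had them, and it had 2 matches on opposite strands. Its stretch is shown with 4 others of the lists, which were chosen after their values were seen to set differing responses beside the same letters. The lines run 5′ to 3′ on the gene's strand, and the capitals mark the match. Slc7a11 lies at chr3:50443638-50443694 (minus strand), Chac1 at chr2:119351034-119351071 (plus), Tars at chr15:11399659-11399688 (minus), Asns at chr6:7693210-7693247 (minus) and Atf3 at chr1:191183421-191183458 (minus).
Slc7a11: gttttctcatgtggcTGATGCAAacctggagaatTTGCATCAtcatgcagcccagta
Chac1: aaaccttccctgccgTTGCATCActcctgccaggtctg
Tars: gggccaggagtcccgTTGCATCAgctggtt
Asns: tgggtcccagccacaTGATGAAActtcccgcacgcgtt
Atf3: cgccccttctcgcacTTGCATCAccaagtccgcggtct

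These genes differed widely in response, from 2.25 log2 for Slc7a11 through 0.83 for Chac1, 0.69 for Tars and 0.67 for Asns to 0.16 for Atf3, a stress-induced transcription factor with overlapping groups. Within the 4 lists the median difference was 0.42 over the 15 genes with the letters and 0.37 over the 37 without, and 1 and 7 of them were called. The 651 genes with the letters that stood on none of those lists had a median of 0.00, with 3 called. The letters of the antioxidant response element to which NRF2 binds, TGACNNNGC, were in 13.16% of risen, 11.36% of fallen and 14.91% of all genes with a window, and those of the heat shock element in 0 risen, 0 fallen and 0.63% of all genes. The cAMP response element TGACGTCA was in 2.63%, 4.55% and 2.65%. A match is a run of letters in this window and not a measured site.

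**Figure D3:**
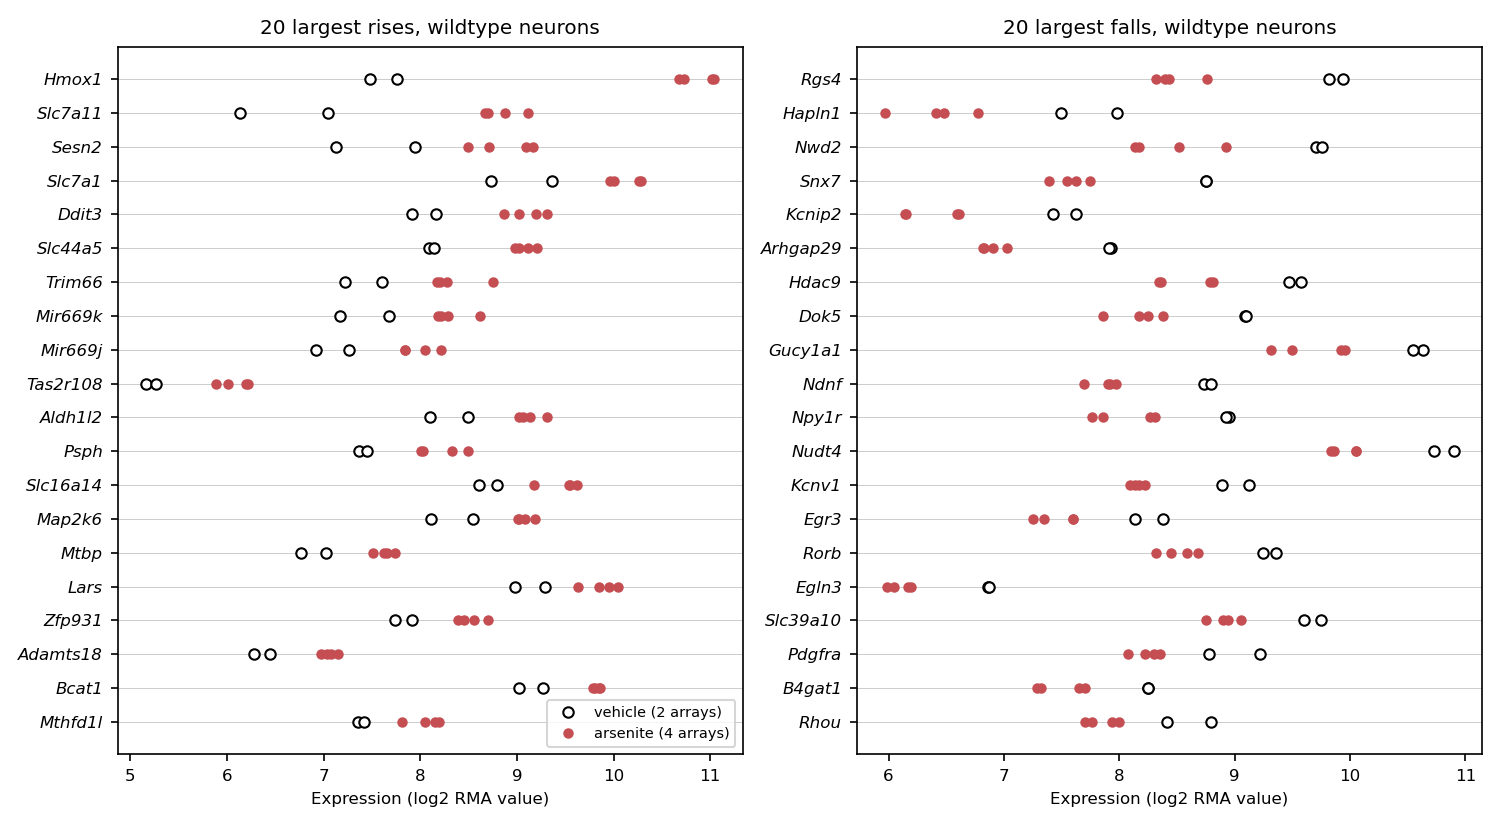
Expression (log2 value, horizontal axis) of the 20 genes with the largest rises and the 20 with the largest falls among called genes, 1 open circle per vehicle array (2) and 1 filled circle per arsenite array (4), wildtype neurons. In each gene the arsenite arrays lie on one side of both vehicle arrays, as in Hmox1 (7.48 and 7.76 against 10.68 to 11.04) and Rgs4 (9.94 and 9.82 against 8.32 to 8.76).

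Among protein-folding genes 1 was called. Dnajb4, a co-chaperone of Hsp70, was at 7.73 in both vehicle arrays and between 8.13 and 8.19 under arsenite, and rose by 0.43 (SE 0.08, adjusted p = 0.0464), a call kept in 0 of 10 left-out-array fits (0.43 to 0.45). It was the 1 of 20 cytosolic heat shock genes that was called, and their median was 0.16. The inducible Hsp70 gene Hspa1b was at 6.49 and 6.11 under vehicle and at 6.51, 7.61, 7.15 and 6.41 under arsenite, so arsenite replicates 2 and 3 were high and the other two lay near vehicle (0.62, adjusted p = 0.528). The same replicates were the highest for Hspa1a (0.45, adjusted p = 0.354) and the chaperone genes Chordc1 (0.48, adjusted p = 0.357) and Hsph1 (0.42, adjusted p = 0.479), where all 4 arsenite arrays lay above vehicle. Of 19 endoplasmic reticulum chaperones 0 were called in limma (4 at an unadjusted p under 0.05, beside 2426 of 22180 over all genes). Their median was -0.17, and 14 were below 0, beside 12230 of 22180 over all genes. Herpud1, which serves the disposal of misfolded proteins of the endoplasmic reticulum, stood apart with 0.77 (adjusted p = 0.0673), while the disulphide isomerase Pdia6 differed by -0.35 (adjusted p = 0.0934) and calreticulin, Calr, by -0.28.

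Among 15 genes of metal and arsenic handling, Slc39a10 fell and 0 rose. Slc39a10 encodes a zinc importer of the cell surface. It was at 9.60 and 9.75 under vehicle and at 8.75, 9.06, 8.90 and 8.94 under arsenite, a fall of 0.76 (SE 0.13, adjusted p = 0.0394), kept in 2 of 10 fits. The metallothioneins Mt1 and Mt2, which bind zinc and arsenite through their cysteines, had all arsenite arrays above vehicle. Mt2 was at 12.15 and 11.95 under vehicle and between 12.53 and 12.82 under arsenite, and the differences of 0.65 for Mt2 and 0.66 for Mt1 had SEs of 0.42 and 0.34 and did not pass (adjusted p = 0.647 and 0.523). The error is shared with the ATF4-deficient arrays, whose vehicle values for Mt2 were 11.7 and 9.68. Mtf1, the metal-sensing factor, was 0.21 lower (adjusted p = 0.439). In limma 0 of 16 p53 targets and 0 of 17 Bcl-2 and death genes were called. At an unadjusted p under 0.05 there was 1 of each, beside 2426 of 22180 over all genes. Cdkn1a, the cell cycle inhibitor p21, differed by -0.29 (adjusted p = 0.609). The death gene Hrk differed by 0.50 with overlapping groups (adjusted p = 0.306).

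Rgs4 had the largest fall among the called genes. Its protein speeds the shutdown of Gq- and Gi-coupled signals in cortical neurons. It was at 9.94 and 9.82 in the vehicle arrays and at 8.76, 8.39, 8.32 and 8.43 under arsenite. Vehicle arrays lay close together and all 4 treated arrays were over 1 unit lower. The fall was 1.40 log2 (SE 0.16, 95% interval -1.74 to -1.06, adjusted p = 0.00573), kept in 9 of 10 left-out-array fits (-1.50 to -1.34). It was the 1 called of 16 regulators of G protein signalling, whose median was -0.11, and Rgs12, Rgs17, Rgs2 and Rgs19 differed by -0.26, 0.23, -0.21 and -0.21 without passing.

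Potassium channels gave the largest number of falls of any list. Of 33 channel and partner genes 4 fell, 0 rose and 29 did not pass; 29 of the 33 estimates were below 0 and the median was -0.17, against 12230 of 22180 below 0 over all genes. Kcnip2 encodes KChIP2, a calcium-binding partner of the A-type channel Kv4. It was at 7.43 and 7.63 under vehicle and at 6.59, 6.14, 6.15 and 6.61 under arsenite, where its mean was below the dim reference. The groups were separate, and the fall was 1.15 (SE 0.17, adjusted p = 0.0234), kept in 6 of 10 fits. Kcnv1 encodes a silent subunit that modifies Kv2 channels. It was at 9.12 and 8.89 under vehicle and between 8.09 and 8.23 under arsenite, a fall of 0.85 (SE 0.09, adjusted p = 0.00573) kept in 9 of 10 fits.

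Smaller falls were in Kcng1 and Kcnn2. Kcng1, a further silent Kv2 partner, was at 8.44 and 8.37 under vehicle and between 7.51 and 7.85 under arsenite and fell by 0.74 (SE 0.12, adjusted p = 0.0315). Kcnn2, the calcium-activated channel SK2 that shapes the pause after a spike, was at 8.36 and 8.11 under vehicle and between 7.38 and 7.59 under arsenite and fell by 0.72 (SE 0.10, adjusted p = 0.0187). Left-out-array fits kept Kcng1 in 5 of 10 and Kcnn2 in 7 of 10. Values of comparable size that did not pass were those of the leak channel Kcnk9 (-0.75, adjusted p = 0.116), the M-current subunit Kcnq3 (-0.66, adjusted p = 0.0757), the Kv4 partner Kcnip4 (-0.53, adjusted p = 0.274) and, in the other direction, the sodium-activated channel Kcnt2 (0.51, adjusted p = 0.131). In 14 of the 33 every arsenite array lay below vehicle and in 2 every one lay above, beside 12.7% and 7.86% of all genes.

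Calcium and sodium channels had 1 call among 24. Cacna1i, a low-voltage-activated T-type channel, was at 8.05 and 8.04 under vehicle and at 7.66, 7.50, 7.54 and 7.57 under arsenite. Its groups did not overlap, and it fell by 0.47 (SE 0.08, adjusted p = 0.0381), a call kept in 0 of 10 left-out-array fits (-0.50 to -0.45). Another T-type channel, Cacna1g, differed by -0.39 (adjusted p = 0.239), the auxiliary subunit Cacnb1 by -0.43 (adjusted p = 0.130) and the AMPA receptor partner Cacng3 by 0.47 (adjusted p = 0.556). Rem2, a small GTPase that restrains calcium channels and stood on no list, fell by 0.63 (SE 0.11, adjusted p = 0.0394). The Rem2 call was kept in 1 of 10 left-out-array fits.

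Receptor and synapse lists had 0 calls in limma. At an unadjusted p under 0.05 there were 5 of 20 glutamate receptor, 2 of 9 GABA-A receptor, 9 of 20 postsynaptic and 3 of 26 presynaptic genes, beside 2426 of 22180 over all genes. The median over glutamate receptor genes was -0.11; Grm2, a presynaptic inhibitory receptor, was at 9.08 and 9.15 under vehicle and at 8.47, 7.99, 7.69 and 8.42 under arsenite (-0.97, SE 0.22, adjusted p = 0.0907), and Grm3, its close relative, differed by -0.46 (adjusted p = 0.311). All 20 postsynaptic scaffold genes had estimates below 0, beside 12230 of 22180 over all genes, with a median of -0.25. Shank1 was the lowest with -0.62 (adjusted p = 0.0674), then the calcium-dependent kinase Camk2a with -0.51 and overlapping groups, and the inhibitory synapse organiser Nlgn2 with -0.49 (adjusted p = 0.190). Of 26 presynaptic genes 20 were below 0, beside the same 12230 of 22180 over all genes, with a median of -0.07. The priming factor Unc13a was the lowest with -0.48 (adjusted p = 0.0674). The 9 GABA-A receptor genes had a median of -0.11, with Gabra5 lowest (-0.41, adjusted p = 0.0717).

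Several called genes with synaptic roles stood outside the lists. Ddn encodes dendrin, whose RNA is carried into dendrites. It was at 8.30 and 8.44 under vehicle and at 7.58, 7.54, 7.60 and 7.81 under arsenite, and fell by 0.74 (SE 0.10, adjusted p = 0.0152). The liprins Ppfia3 and Ppfibp1, scaffolds of the presynaptic active zone family, fell by 0.58 and 0.75, the synapse adhesion gene Slitrk2 by 0.74, the cadherin Cdh10 by 0.52 and the diacylglycerol kinase Dgkz by 0.53. For Dgkz a second and dimmer probe set differed by 0.02. Dock3, a Rac activator in axons, fell by 0.62, and Camkk2, a calcium-dependent kinase upstream of AMPK, by 0.59. Left-out-array fits kept Ddn and Ppfibp1 in 6 of 10, Slitrk2 and Camkk2 in 4 of 10 and Ppfia3 and Dock3 in 2 of 10. They kept Cdh10 in 1 of 10 and Dgkz in 0 of 10.

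**Figure D4:**
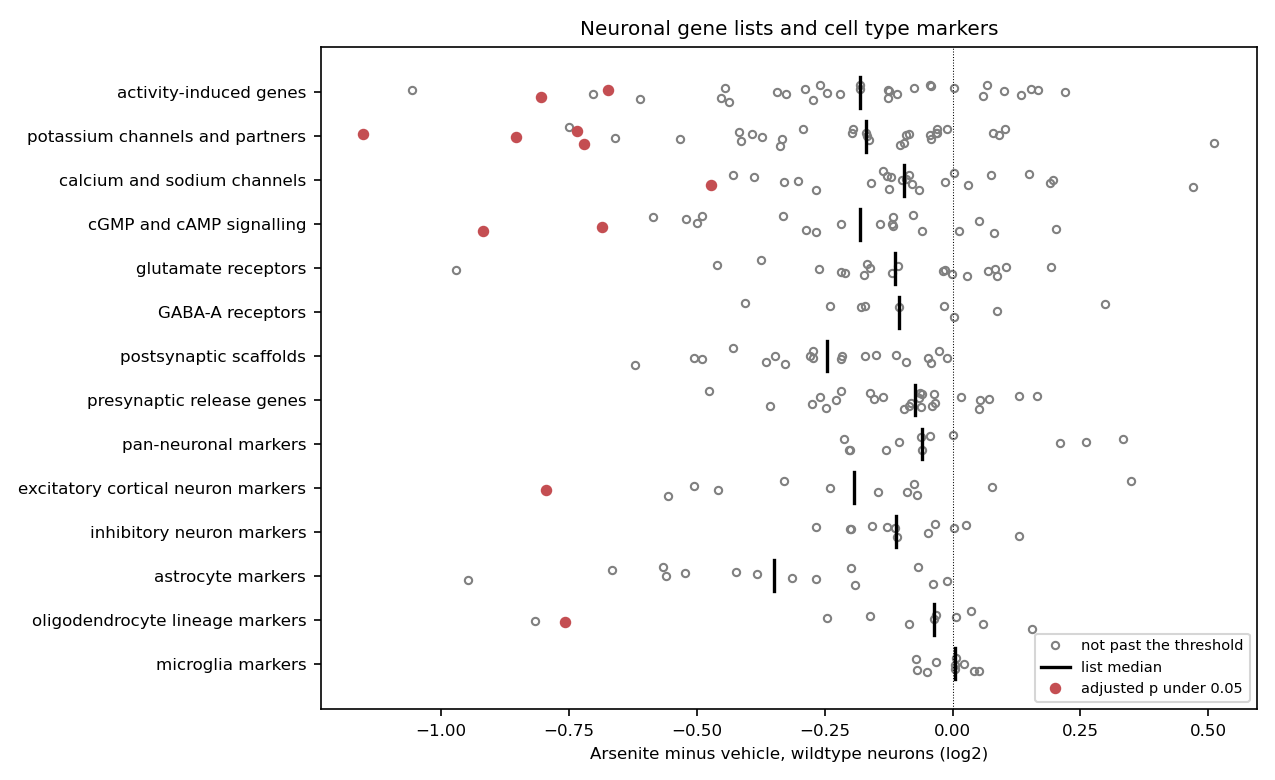
Difference of arsenite minus vehicle in wildtype neurons (log2, horizontal axis) for each measured gene of 8 lists of neuronal function and 6 lists of cell type markers, 1 circle per gene; filled circles passed an adjusted p of 0.05 and the bar marks the list's median. Potassium channels hold 4 falls around a median of -0.17, postsynaptic scaffolds lie below 0 throughout with 0 calls, and astrocyte markers have the lowest median of the 14 lists, -0.35.

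Both subunit genes of the nitric oxide receptor fell. Soluble guanylate cyclase makes cGMP when nitric oxide binds it and is a dimer of the products of Gucy1a1 and Gucy1b1. Gucy1a1 was at 10.63 and 10.55 under vehicle and at 9.92, 9.50, 9.32 and 9.96 under arsenite, a fall of 0.92 (SE 0.17, adjusted p = 0.0464). Gucy1b1 was at 10.80 and 10.48 under vehicle and at 10.06, 9.93, 9.73 and 10.09 under arsenite, a fall of 0.69 (SE 0.12, adjusted p = 0.0394). Neither overlapped, and each call was kept in 1 of 10 left-out-array fits (-0.847 to -0.526 for Gucy1b1). These were the 2 calls among 20 genes of cGMP and cAMP signalling, with a median of -0.18; the phosphodiesterase Pde2a differed by -0.59 (adjusted p = 0.239) and the adenylyl cyclases Adcy5 and Adcy1 by -0.52 (adjusted p = 0.0630) and -0.50 (adjusted p = 0.239).

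Genes that neuronal activity induces report recent calcium signals. Of 32, 2 fell, 0 rose and 30 did not pass. The median was -0.18, and 24 estimates were below 0, beside 12230 of 22180 over all genes. Egr3, an immediate early transcription factor, was at 8.38 and 8.13 under vehicle and at 7.60, 7.25, 7.35 and 7.60 under arsenite, a fall of 0.80 (SE 0.13, adjusted p = 0.0286) kept in 6 of 10 fits. Inhba, the activin subunit induced by synaptic calcium, was at 7.83 and 7.70 under vehicle and between 6.96 and 7.24 under arsenite. Its fall of 0.67 (SE 0.12, adjusted p = 0.0396) was kept in 3 of 10 fits. Neither gene's groups overlapped. The nuclear receptor Nr4a3 was at 9.99 and 10.13 under vehicle and at 9.16, 8.92, 8.67 and 9.28 under arsenite, lower by 1.06 (SE 0.20) but not past the threshold (adjusted p = 0.0554). Egr1 differed by -0.70 (adjusted p = 0.172), Nr4a2 by -0.61 (adjusted p = 0.0646) and Npas4 by -0.45 (adjusted p = 0.298).

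Hdac9, a class II histone deacetylase that shuttles with neuronal activity and represses MEF2 factors, was at 9.58 and 9.48 under vehicle and at 8.78, 8.36, 8.34 and 8.81 under arsenite. It fell by 0.95 (SE 0.16, adjusted p = 0.0381), with separate groups and a call kept in 4 of 10 left-out-array fits. It was the 1 call among 7 class II deacetylase and MEF2 genes (median -0.15), where Mef2c differed by -0.45 (adjusted p = 0.322) and Hdac5 by -0.35. Further transcription factors of cortical neurons fell outside that list. Rorb, a nuclear receptor of layer 4 neurons, was at 9.36 and 9.25 under vehicle and at 8.58, 8.45, 8.32 and 8.68 under arsenite (-0.79, SE 0.12, adjusted p = 0.0254), a call kept in 6 of 10 fits. Lhx2, a LIM homeodomain factor of the cortex, fell by 0.70 (SE 0.12, adjusted p = 0.0396), a call kept in 2 of 10 fits.

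In the extracellular matrix 2 of 26 genes fell and 1 rose. Hapln1 links hyaluronan to proteoglycans in perineuronal nets, the lattices around some cortical neurons. It was at 7.50 and 7.98 under vehicle and at 6.41, 5.97, 6.48 and 6.77 under arsenite, where the mean was below the dim reference. The highest arsenite array lay under both vehicle arrays, and the fall was 1.33 (SE 0.21, adjusted p = 0.0315), kept in 5 of 10 fits (-1.57 to -1.09). Ndnf, a secreted neurotrophic protein, was at 8.73 and 8.80 under vehicle and between 7.69 and 7.98 under arsenite and fell by 0.89 (SE 0.10, adjusted p = 0.00573), kept in 9 of 10 fits. Adamts18, a secreted metalloprotease, was at 6.28 and 6.44 under vehicle and between 6.97 and 7.15 under arsenite and rose by 0.70 (SE 0.11, adjusted p = 0.0286), with a vehicle mean below the dim reference and a call kept in 5 of 10 fits. The list's median was -0.07. In limma 0 of 36 axon guidance genes were called (10 at an unadjusted p under 0.05, beside 2426 of 22180 over all genes).

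Most of the other steep falls were in genes of no list. Snx7, a sorting nexin of endosomal transport, was at 8.75 in both vehicle arrays and at 7.63, 7.39, 7.55 and 7.75 under arsenite. Its fall of 1.17 (SE 0.11, adjusted p = 0.00299) was kept in 9 of 10 left-out-array fits. Nwd2, a large NACHT and WD-repeat protein, was at 9.70 and 9.76 under vehicle and at 8.52, 8.17, 8.14 and 8.92 under arsenite, a fall of 1.29 (SE 0.19, adjusted p = 0.0234); a second Nwd2 probe set, with a vehicle mean of 8.26, differed by -0.24. Both genes had tight vehicle arrays and no overlap, and the Nwd2 call was kept in 6 of 10 fits. Arhgap29 fell by 1.02 (SE 0.13, adjusted p = 0.0104), the adaptor Dok5 by 0.93 (SE 0.13, adjusted p = 0.0184) and Nudt4, which hydrolyses diphosphoinositol phosphates, by 0.86 (SE 0.10, adjusted p = 0.00812). Npy1r, a receptor for neuropeptide Y, fell by 0.89 (SE 0.15, adjusted p = 0.0381) and Fbxw7, which marks proteins such as c-Jun for destruction, by 0.75 (SE 0.12, adjusted p = 0.0338). Of the left-out-array fits 8 of 10 kept Arhgap29, 7 of 10 Dok5, 9 of 10 Nudt4, 5 of 10 Fbxw7 and 2 of 10 Npy1r.

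Egln3 is one of the prolyl hydroxylases that mark hypoxia-inducible factor for destruction and is itself a hypoxia target. It was at 6.86 and 6.87 under vehicle and between 5.99 and 6.19 under arsenite, under the dim reference, and fell by 0.77 (SE 0.12, adjusted p = 0.0286), a call kept in 4 of 10 fits. The glycosyltransferase gene B4gat1, whose product builds the sugar of dystroglycan, and Rhou each fell by 0.76, and each call was kept in 1 of 10 fits (-0.949 to -0.562 for Rhou). Smaller falls were in the glycosyltransferases B4galt2 (-0.57) and Galnt2 (-0.50) and the sulphotransferase Hs3st2 (-0.61). Others were in the importin Ipo4 (-0.55, though -0.07 in a dimmer probe set) and the dynein light chain Dynll1 (-0.55). Caveolin Cav1 (-0.54) and the exoribonuclease Dis3l2 (-0.44) also fell. The remaining falls were Diras2, Ccdc184, Lipg, Klhl4, Peli2, Bean1, Gpr26, Pcnx3, Hip1, Prpsap1, Rasl10b and Ptp4a3, between -0.74 and -0.49, and an olfactory receptor gene.

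Among rises outside the stress lists the steadiest was Slc44a5, a choline transporter-like gene. It was at 8.09 and 8.14 under vehicle and at 9.21, 9.12, 8.98 and 9.02 under arsenite, a rise of 0.97 (SE 0.09, adjusted p = 0.00299). The vehicle and arsenite arrays were each close together, and 9 of 10 left-out-array fits kept the call. Trim66, a chromatin-binding protein, was at 7.22 and 7.60 under vehicle and between 8.18 and 8.75 under arsenite and rose by 0.94 (SE 0.18, adjusted p = 0.0484), a call kept in 0 of 10 fits (0.76 to 1.13). Slc16a14, of the monocarboxylate transporter family, rose by 0.78 (SE 0.14, adjusted p = 0.0484), the p38-activating kinase Map2k6 by 0.75 (SE 0.12, adjusted p = 0.0330) and Mtbp, a partner of MDM2, by 0.74 (SE 0.13, adjusted p = 0.0394). Slc16a14 was kept in 1 of 10 fits, Map2k6 in 3 of 10 (0.53 to 0.965) and Mtbp in 2 of 10. Cers6, a ceramide synthase, was at 10.61 and 10.63 under vehicle and between 11.16 and 11.37 under arsenite and rose by 0.63 (SE 0.08, adjusted p = 0.0152).

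Smaller rises were in the bicarbonate transporter Slc4a10 (0.58), the lysosomal α-galactosidase gene Gla (0.60), the histone demethylase Kdm7a (0.59), the snoRNA host gene Snhg1 (0.63), the receptor Gpr139 (0.58), Spry3 (0.63), Bbx (0.64), Pwwp3b (0.64), Gpr137b-ps (0.62), the DNA repair genes Rad9b and Slx4ip (0.49 and 0.48), the centrosomal gene Akna (0.47) and the lipid transfer gene Mttp (0.46). Zinc finger genes contributed 4 rises, Zfp931 (0.70, kept in 2 of 10 fits), Zfp808 (0.55), Zfp959 (0.53) and Zfp93 (0.48), among 336 named Zfp that had a median of 0.06. A further 11 of the 51 rises were clone or model names or olfactory receptors.

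MicroRNA genes were among the rises. The genes Mir669k and Mir669j lie in a repeated cluster within an intron of Sfmbt2, and the array reads their precursor region. Mir669k was at 7.17 and 7.68 under vehicle and at 8.61, 8.29, 8.19 and 8.22 under arsenite (0.90, SE 0.16, adjusted p = 0.0394), and Mir669j at 6.93 and 7.27 and between 7.84 and 8.22 (0.89, SE 0.14, adjusted p = 0.0286). The call was kept in 1 of 10 fits for Mir669k (0.647 to 1.16) and in 6 of 10 for Mir669j. Mir669k had 9 probe sets, several with identical values, and their differences lay between 0.79 and 1.40, so the near-identical copies cannot be told apart. Of 22 genes of this and related microRNA families on chromosome 2 these were the 2 that rose, with a median of 0.25. The host Sfmbt2, named after its value was seen, was at 6.56 and 6.58 under vehicle and between 6.82 and 7.27 under arsenite (0.51, adjusted p = 0.108).

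Bitter taste receptor genes were also among the rises. Tas2r108 was at 5.16 and 5.26 under vehicle and at 6.22, 6.01, 6.19 and 5.89 under arsenite, below the dim reference in all 6 arrays. Its rise of 0.86 (SE 0.10, adjusted p = 0.00937) was kept in 9 of 10 left-out-array fits. Tas2r137 was at 6.12 and 6.03 under vehicle and between 6.63 and 6.65 under arsenite and rose by 0.57 (SE 0.09, adjusted p = 0.0286). The other 33 of the 35 measured members of the family were not called, and the median of all 35 was -0.02.

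Markers of other cells that may grow in such cultures were read beside these changes. Among astrocyte markers all 14 estimates were below 0, beside 12230 of 22180 over all genes, with a median of -0.35. In 9 every arsenite array lay below vehicle, beside 12.7% of all genes. In limma 0 were called (6 at an unadjusted p under 0.05, beside 2426 of 22180 over all genes). The mean over the 14 genes was 7.96 and 8.14 in the vehicle arrays and 7.78, 7.57, 7.47 and 7.91 in the arsenite arrays, and 2 of the 14 were below the dim reference. The water channel Aqp4 was at 8.59 and 8.92 under vehicle and at 7.97, 7.38, 7.49 and 8.39 under arsenite (-0.95, adjusted p = 0.171), Gfap at 7.83 and 7.95 and between 7.27 and 7.40 (-0.57, adjusted p = 0.0554), and the glycolytic gene Aldoc differed by -0.67 (adjusted p = 0.272). In bulk RNA, fewer cells of a type and less RNA per cell cannot be told apart, and the part of these marker differences in the falls described above was not tested. Arsenite replicates 2 and 3 had the lowest astrocyte means, and the same arrays were the lowest for Rgs4, Hdac9, Gucy1a1, Nwd2 and Grm2, which were picked for this after their values were seen. In ATF4-deficient neurons the median over the 14 markers was -0.01, with list means of 7.48 and 7.17 under vehicle and 7.43 and 7.11 under arsenite. The vehicle means there were below those of wildtype.

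Pdgfra encodes a PDGF receptor found on precursors of oligodendrocytes and on fibroblasts. It was at 8.78 and 9.22 under vehicle and at 8.30, 8.22, 8.07 and 8.36 under arsenite. It fell by 0.76 (SE 0.14, adjusted p = 0.0464), a call kept in 0 of 10 left-out-array fits (-0.98 to -0.54). It was the 1 of 11 oligodendrocyte lineage markers that was called; Olig1 differed by -0.82 (adjusted p = 0.190), and the list's median was -0.04. Among 9 fibroblast and meningeal markers 4 were below the dim reference in both groups. Apart from Pdgfra, 8 of the markers were above 0, beside 9950 of 22180 over all genes, and not called. Their list mean was high in arsenite replicates 2 and 3 (7.05 and 7.08) and at 6.59 and 6.65 in replicates 1 and 4, beside 6.74 and 6.71 in vehicle, with Col1a1 at 8.14 and 7.93 against 7.06 and 7.25. Microglial (10) and vascular (12) markers had medians of 0.01 and 0.00 and 0 calls in limma (0 also at an unadjusted p under 0.05), with list means between 6.58 and 6.82 in all 6 arrays. Below the dim reference in both groups were 4 microglial and 7 vascular markers, beside 8407 of 22180 over all genes. Background compresses a change there.

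Neuronal markers had 1 call. Of 12 pan-neuronal genes 0 were called in limma (3 at an unadjusted p under 0.05, beside 2426 of 22180 over all genes). Their median was -0.06. Of 12 inhibitory neuron markers 0 were called (0 also unadjusted), with a median of -0.11. Of 12 excitatory cortical markers Rorb was the 1 called, and the median was -0.19. Below 0 were 10 of them, beside 12230 of 22180 over all genes. The vesicular glutamate transporters went opposite ways without passing: Slc17a7 was at 8.76 and 8.99 under vehicle and between 8.03 and 8.58 under arsenite (-0.56, adjusted p = 0.139), and Slc17a6 at 8.28 and 8.35 and between 8.52 and 8.79 (0.35, adjusted p = 0.139).

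The same treatment of ATF4-deficient neurons was set beside these genes, from arrays that share no sample with the wildtype groups. There 256 genes were called (1.15% of those tested; 140 higher, 0.631%, and 116 lower, 0.523%). Of the 51 wildtype rises 46 had the same sign and 20 were called there as well, which is 20 of its 140 rises. Of the 56 falls 54 had the same sign and 21 were called, of its 116 falls. The share of same signs over all genes was not counted. Both comparisons also used the same estimate of spread for each gene, so calls in both genotypes are not independent. The genotype difference of the response itself was called for 0 of 22180 genes in limma (0%), with 1330 at an unadjusted p under 0.05 and a median SE of 0.17, so no gene is shown here to respond differently by genotype, nor to respond alike.

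Side by side, Hmox1 differed by 3.25 in wildtype and 2.18 in ATF4-deficient neurons, and Slc7a11 by 2.25 and 1.43. In ATF4-deficient neurons the Slc7a11 mean was below the dim reference under both vehicle and arsenite. In wildtype only its vehicle mean was below that level. Background compresses a change there, so the sizes for Slc7a11 cannot be compared directly between genotypes. Among integrated stress response genes Ddit3 was 1.06 against 0.25, Sesn2 1.34 against -0.07, Atf5 0.58 against -0.09, Psph 0.81 against 0.11 and Mthfd1l 0.67 against -0.01. The remaining called genes of those lists were Aldh1l2 with 0.84 against 0.52, Slc7a1 with 1.08 against 0.50, Lars with 0.73 against 0.24 and Bcat1 with 0.68 against 0.24. The median over the 17 amino acid and folate-pathway genes was 0.67 in wildtype and -0.01 in ATF4-deficient neurons. Over the 22 regulators and linked genes it was 0.37 and 0.03. For Sesn2 the difference between the responses was -1.41 (95% interval -2.21 to -0.61, adjusted p = 0.724) and for Ddit3 -0.81 (-1.26 to -0.37, adjusted p = 0.701).

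Among lower genes Rgs4 differed by -1.40 in wildtype and -2.02 in ATF4-deficient neurons, Hdac9 by -0.95 and -1.78, Snx7 by -1.17 and -1.30, Rorb by -0.79 and -1.03 and Nr4a3 by -1.06 and -2.13. Among channel genes Cacna1i was -0.47 against 0.41, with a difference between responses of 0.88 (0.61 to 1.15, adjusted p = 0.340), and Kcnn2 -0.72 against 0.13, with 0.85 (0.52 to 1.19, adjusted p = 0.340). Kcnip2 was -1.15 against -0.49, Kcnv1 -0.85 against -0.40 and Kcng1 -0.74 against -0.16. Vehicle means of Cacna1i, Kcnn2, Kcnip2, Kcnv1 and Kcng1 were 8.04, 8.24, 7.53, 9.01 and 8.40 in wildtype. In ATF4-deficient neurons they were 7.53, 7.49, 6.48, 8.42 and 7.68, beside wildtype arsenite means of 7.57, 7.51, 6.37, 8.15 and 7.67. The ATF4-deficient levels were thus lower than in wildtype before arsenite, and that of Kcnip2 was below the dim reference. These genes were picked for comparison after their values were seen, and in none did the adjusted test of the difference pass.

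**Figure D5:**
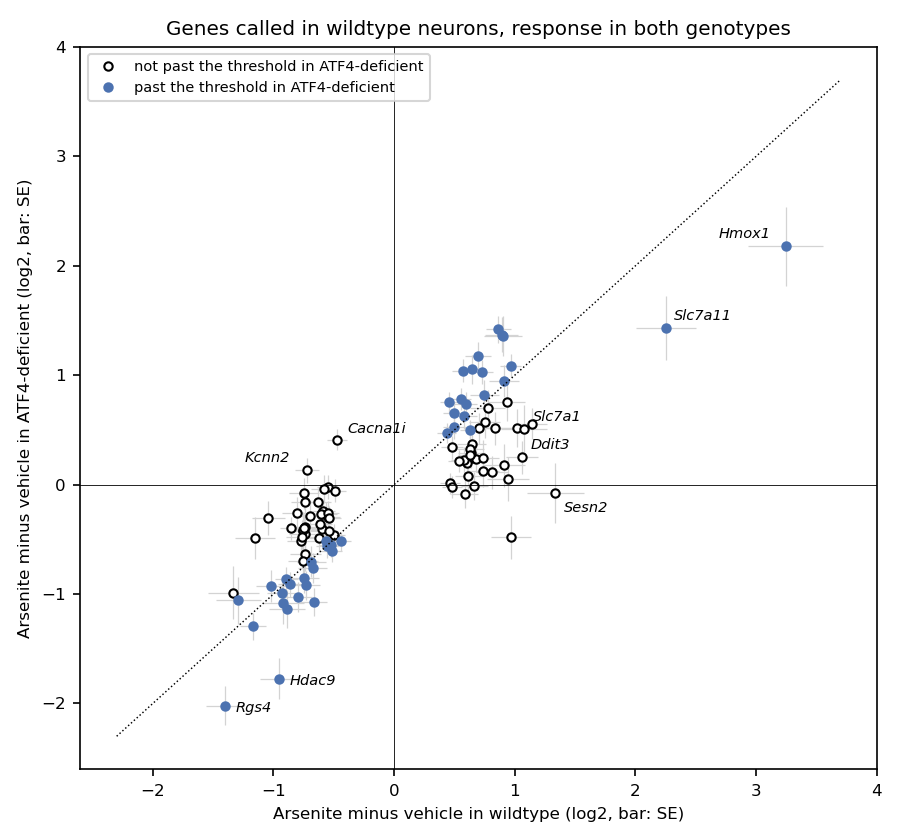
Arsenite minus vehicle (log2) in wildtype neurons (horizontal axis) against the same in ATF4-deficient neurons (vertical axis) for the 107 genes called in wildtype; bars are standard errors, filled circles were also called in ATF4-deficient neurons and the dotted line marks equal responses. Hmox1 (3.25 and 2.18) and Rgs4 (-1.40 and -2.02) keep their sign in both genotypes, while Sesn2 (1.34 and -0.07), Cacna1i (-0.47 and 0.41) and Kcnn2 (-0.72 and 0.13) are among 7 genes of opposite sign.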

How the data were processed

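Total RNA (100 ng per sample) was labelled for Affymetrix whole-transcript arrays, per the labels' protocols. The authors deposited log2 expression values from robust multiarray averaging (RMA) with Partek 6.6, per the submitters' processing notes and the design text. RMA equalizes the arrays' distributions, which takes out any shift common to most transcripts. Scanner files were not used here.

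Of 41345 probe sets 23521 had 1 gene symbol in the platform annotation, 23328 of them matched to a GRCm38.p6 gene by Entrez identifier, and for 1082 genes with several probe sets the brightest by mean over all arrays was kept (22180 genes). Groups came from the titles. A limma model (limma 3.58.1, R 4.3.3) took 1 mean for each group over all 10 arrays, without a replicate block (6 residual degrees of freedom, prior degrees of freedom 5.08, prior SD 0.124), because 2 vehicle arrays alone give little estimate of spread. P-values were adjusted by Benjamini-Hochberg over all genes. The code was tested on simulated data.

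Genes were named by rule: the 20 largest rises and falls among called genes with separate groups, leaving out clone names and olfactory receptors, all called members of 43 gene lists with up to 4 uncalled ones each, and Atf4, Nfe2l2, Mtf1 and Xist (Hsf1 was not analysed here). Other called genes, and Asns, Atf3, Nqo1, Srxn1, Sfmbt2 and the Y-linked genes, were named after their values were seen. The members and lists were chosen with earlier results of these data known. Sequences are from RefSeq. Alternatives covered dim genes, probe sets, scaling, arrays, weights, prior, block, Xist and each array left out. The number of arrays limits the precision.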

Additional observations from a re-analysis of the deposited data

Results flagged for a closer look

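Of 239 named genes and list means checked, 8 had 1 of the 4 wildtype arsenite arrays far from the others (a gap over range above Dixon's critical value), where chance gives about 1 in 20. Replicate 2 was the array apart in 4 of them: it was the highest for the zinc finger gene Zfp959 (6.155, the others at 6.097) and for the serine hydroxymethyltransferase Shmt2 (9.93, the others between 9.24 and 9.34), and the lowest for Bean1 (7.481, the others between 7.53 and 7.54) and for the mean of the microglial markers (6.753, the others between 6.79 and 6.80). Replicate 1 was the highest for the disulphide isomerase Pdia6 (9.301, the others between 9.19 and 9.21) and for Mir669i (6.877, the others between 6.59 and 6.63). Replicate 4 was the highest for Mir669h (9.744, the others between 9.28 and 9.33) and for the isocitrate dehydrogenase Idh1 (11.102, the others between 10.84 and 10.88). In Zfp959 the other 3 arrays had equal values to 3 decimals.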

How the results depend on the processing

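The count of 107 calls (51 higher, 56 lower) became 162 with dim genes removed (70 and 92), 186 with array weights (89 and 97), 152 after quantile normalization (89 and 63) and 11 with the 6 wildtype arrays alone (4 and 7). With the replicate number as a block it was 17 (7 and 10), 14 of them among the 107. The deviations of same-numbered wildtype arrays correlated at 0.0933 and 0.0186, the ATF4-deficient arrays were not checked for pairing, and no label ties a number to a shared source. With averaged probe sets, equal medians, a trended or robust prior or Xist as a covariate it stayed within 1.5 times (93 to 145). Leaving out each array gave 0 to 75 calls, 0 to 29 higher and 0 to 48 lower. The cause was not tested, apart from the fewer arrays or genes in each fit. Over the named genes, 3009 values under an alternative stayed called or stayed uncalled, 827 lost the call and 73 gained it. Where either fit called the gene, 0 changed sign. Some uncalled genes did change sign, such as Nfe2l2, at 0.13 with all arrays and -0.06 without vehicle replicate 1. The genotype difference stayed at 0 calls under each alternative run for it, the block included. The files hold no detection calls, so signal over background was judged from receptor genes alone.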

Other observations

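Lists of general cell function held 0 calls in limma and medians near that of all genes, apart from lipid synthesis. At an unadjusted p under 0.05 there were 3 of 17 cholesterol and fatty acid, 6 of 31 proteasome and 2 of 28 respiratory chain genes. Translation genes gave 4 of 22 and autophagy genes 4 of 25, beside 2426 of 22180 over all genes. Of 17 cholesterol and fatty acid synthesis genes 16 were below 0, beside 12230 of 22180 over all genes, with a median of -0.26. But the vehicle arrays spread widely (list means 9.87 and 10.25, against 9.57 to 10.06 under arsenite). In 1 gene the groups were separate with arsenite lower. This was Hmgcs1, the enzyme that makes HMG-CoA (-0.41, adjusted p = 0.266). It was at 12.20 and 12.31 under vehicle and between 11.55 and 12.13 under arsenite. Fatty acid synthase, Fasn, differed by -0.60 with overlapping groups (adjusted p = 0.250) and the sterol carrier Stard4 by -0.58 (adjusted p = 0.375). Proteasome subunits lay a little above 0, with a median of 0.08 over 31 genes. Of these, 22 estimates were above 0, beside 9950 of 22180 over all genes. The base ATPase Psmc2 was at 9.18 and 9.32 under vehicle and between 9.47 and 9.77 under arsenite (0.37, adjusted p = 0.335). Respiratory chain genes (28, median -0.03) and translation factors (22, median -0.01) were close to the median of all genes. Among 25 autophagy and lysosome genes the conjugation enzyme Atg7 differed by -0.42 (adjusted p = 0.119) and the lysosomal membrane gene Lamp2 by 0.41 (adjusted p = 0.101), each with separate groups.

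Of 16 neuropeptide genes Adcyap1, which encodes PACAP, differed most (-0.61, adjusted p = 0.0637), with all arsenite arrays below vehicle. Of the axon guidance genes the semaphorin receptor Plxnd1 was the lowest, at 9.52 and 9.29 under vehicle and between 8.61 and 9.07 under arsenite (-0.54, adjusted p = 0.116). Among MAP kinase feedback genes the phosphatase Dusp6 differed by -0.45 (adjusted p = 0.271).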
